A study of Mus musculus with 18 samples.

Results

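Potassium channel genes were read on 18 Affymetrix arrays of detached mouse retina. They were taken as the genes with a single platform symbol of the Kcn type, that is Kcn, family letters and a member number, with Kcnj10 included. The array held 90 such probe sets for 62 genes. Each gene was represented by its probe set with the highest mean over the 18 arrays, and the 31 genes with a mean above 6 (log2 RMA level) over the 6 groups are described. The other 31 genes were at or below 6. The median probe set of an array stood at 6.67 to 6.76, so the limit of 6 lies below it. Just above this level were Kcna6 at 6.05, Kcnn4 at 6.34 and Kcnd3 at 6.42, and just below it Kcnn3 at 5.97, Kcnn1 at 5.89 and Kcnk7 at 5.88. Kcnj2, an inward rectifier, was at 3.65, and Kcnj13 and Kcnv2 were not analysed here.

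All mice were Balb/cJ, and every retina had been detached by a subretinal injection of 1 uL. The injected fluid was saline alone or saline with 10 uM INS37217, an agonist of the P2Y2 receptor. Retinas were taken 2 h, 24 h or 7 d after the injection, which gave 6 groups of 3 arrays, each array made from 7 ug of RNA of a pool of more than 5 retinas. The series text describes the 3 pools of a group as biological replicates and gives the purpose as a search for genes linked to faster resolution of the detachment. Both fluids detach the retina and no undetached retina is in the series, so a change with time is a change from the detached retina at 2 h, and a drug difference is one between detached retinas. Nothing in the labels gives the age or sex of the mice, or says whether pools share an animal.

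Potassium channels let potassium leave or enter a cell down its gradient and so set resting potential, shape the repolarisation after a depolarisation and clear potassium from the space between cells. Voltage-gated channels are tetramers of pore subunits, often with beta subunits, KChIPs or KCNE proteins attached. Inward rectifiers hold the resting potential, two-pore channels carry leak current, and calcium-activated channels couple calcium entry to potassium efflux. In the retina, Mueller glia are known for the Kir4.1 channel (Kcnj10), through which they take up and redistribute the potassium that neurons release, and photoreceptors and bipolar cells for voltage-gated and calcium-activated channels that shape the light response.

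The 31 genes fell into 12 voltage-gated pore subunits, 8 auxiliary subunits, 4 inward rectifiers, 2 two-pore channels and 5 calcium-activated channel genes (a pore, its beta subunits and the small and intermediate conductance channels). Time after injection moved some of them, most clearly Kcne2, which was 2.73-fold and 3.34-fold lower at 24 h than at 2 h in saline and with INS37217 and rose again by 7 d in both. Between INS37217 and saline no potassium channel gene was called at any time without the replicate block on the probe set used. With the block Kcnj10 and Kcne2 were called as lower with INS37217 at 24 h, and a second probe set of Kcnab2 as higher at 2 h. A gene was called where limma gave an adjusted p under 0.05, with p-values adjusted over all 22626 probe sets. Arrays with the same replicate number deviated together in this series, so every result is also given from a second fit with the replicate number as a block (the blocked fit) where that changes the call. By the first fit 6 of the 31 genes were called in at least 1 contrast, and by either fit 22 were, while 9 (Kcna2, Kcna6, Kcnab1, Kcnab3, Kcnd3, Kcnh1, Kcnh3, Kcnk3 and Kcnmb2) were called in none. Counts of genes, here and below, are for the 1 probe set used per gene. Over all genes above 6, 15.9% were called in at least 1 contrast by the first fit and 53.2% by either. A lower array level can mean fewer cells of a type or less RNA per cell, and in whole retina these cannot be told apart.

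Values that bear on all time results come first. The 3′ minus 5′ difference of the beta-actin control probe sets, a measure of RNA integrity, was 1.04 ± 0.093 (log2, SD, n = 3) in saline at 2 h, 0.75 ± 0.042 with INS37217 at 2 h and 0.60 to 0.65 in the other 4 groups. Marker levels moved as well. The mean over 11 of 12 listed Mueller glia markers was 9.47 to 9.87 on the saline 2 h arrays, 9.18 to 9.36 at 24 h and 9.71 to 10.00 at 7 d, and with INS37217 9.54 to 9.88, 8.92 to 9.17 and 9.76 to 10.01. Of these 11 markers, 6 fell and 1 rose by the test from 2 h to 24 h in saline, and 7 fell and 1 rose with INS37217. The mean over 10 of 12 rod markers was 11.87 to 12.15 at 2 h and 11.48 to 11.57 at 24 h in saline, with 5 markers lower by the test, and 11.97 to 12.19 and 11.42 to 11.54 with INS37217, with 7 lower. Retinal identity was plain at these rod levels. The means over markers of skeletal muscle (group means 5.20 to 5.38) and of lymphocytes (5.40 to 5.65) were low. Single markers of these lists were higher, such as Pvalb at 7.94 to 8.19 and Cd3e at 6.85 to 7.28 (group means). Lens markers were high in every group, at 11.10 to 11.31 on the saline 2 h arrays and 11.79 to 12.14 on the others. Pigment epithelium markers, 11 of 12 listed, had group means of 7.59 to 7.82 at 2 h and 8.57 to 8.59 at 7 d. The mean over 14 microglia and macrophage markers was 5.89 to 6.04 on the 2 h arrays of both fluids, 6.39 to 6.6 at 24 h and 6.85 to 7.10 at 7 d in saline, and 6.75 to 6.99 and 7.43 to 7.91 with INS37217. From 2 h to 7 d 8 of the 14 rose in saline and 13 with INS37217 (medians 0.72 and 1.65). Of 9 fibroblast markers, 1 and 8 rose over that time (medians 0.22 and 1.33). The part of RNA integrity and of these cell type levels in the results on potassium channels was not tested.

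Kcne2 (chr16:92292389-92298133, GRCm38.p6) encodes a single-span auxiliary subunit that joins voltage-gated channels of several families. It is shown with its promoter because it had the largest time change of the 31 genes, and the promoter of Kcnab2, the other auxiliary subunit called in both arms, is set beside it. Each run is the 250 bases before the RefSeq start of the gene, 5′ to 3′ on the strand of the gene, and capitals mark CGTCA, the cyclic AMP response half-site, on either strand.
Kcne2, chr16:92292139-92292388, plus strand: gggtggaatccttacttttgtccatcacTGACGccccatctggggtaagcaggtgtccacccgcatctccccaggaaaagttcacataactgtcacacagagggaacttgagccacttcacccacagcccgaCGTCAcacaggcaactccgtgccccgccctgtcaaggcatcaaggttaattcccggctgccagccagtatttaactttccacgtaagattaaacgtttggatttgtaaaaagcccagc
Kcnab2, chr4:152477550-152477799, minus strand: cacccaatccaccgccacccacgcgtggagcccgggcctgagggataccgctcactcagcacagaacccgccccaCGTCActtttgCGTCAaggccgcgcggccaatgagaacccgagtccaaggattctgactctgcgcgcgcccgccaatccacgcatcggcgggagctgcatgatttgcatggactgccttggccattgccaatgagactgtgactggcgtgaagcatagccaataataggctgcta
Both promoters held CGTCA 2 times, and neither held TAATCC, bound by photoreceptor homeobox factors, or TGACTCA, the AP-1 site. Over all 32851 promoters of this length, searched on both strands, 17.8% held CGTCA, 6.25% TAATCC and 4.46% TGACTCA. RefSeq held 36 promoters for 25 of the 31 genes, of which 16.7% held CGTCA, 2.78% TAATCC and 2.78% TGACTCA. The matches are a description of letters, and none was linked to a change in level here.

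Kcne2 stood at 8.59, 9.02 and 9.04 (log2 level, replicates 1, 2 and 3) in saline at 2 h, at 7.07, 7.68 and 7.56 at 24 h and at 8.23, 8.87 and 8.80 at 7 d. With INS37217 it stood at 8.57, 8.91 and 8.93 at 2 h, 6.74, 7.22 and 7.23 at 24 h and 8.16, 8.69 and 8.71 at 7 d. All 3 arrays at 24 h lay below every array of the other times in each arm. The fall from 2 h to 24 h was 2.73-fold in saline (log2 difference -1.45, SE 0.22, adjusted p = 0.00066) and 3.34-fold with INS37217 (-1.74, SE 0.22, adjusted p = 1e-04). The rise from 24 h to 7 d, which shares the 24 h arrays with the fall, was 2.29-fold in saline (1.20, adjusted p = 0.01) and 2.74-fold with INS37217 (1.46, adjusted p = 0.0013). At 7 d it was not called different from 2 h in either arm (-0.25, adjusted p = 0.72, and -0.28, adjusted p = 0.68), and the blocked fit called both as lower (adjusted p = 0.042 and 0.026). Both falls and the rise with INS37217 passed with any 1 of the 18 arrays left out. The rise in saline was lost without saline 24 h replicate 1 or saline 7 d replicate 2 or 3, where its adjusted p reached 0.065, and in a fit on the compared arrays alone (adjusted p = 0.15).

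**Figure D1:**
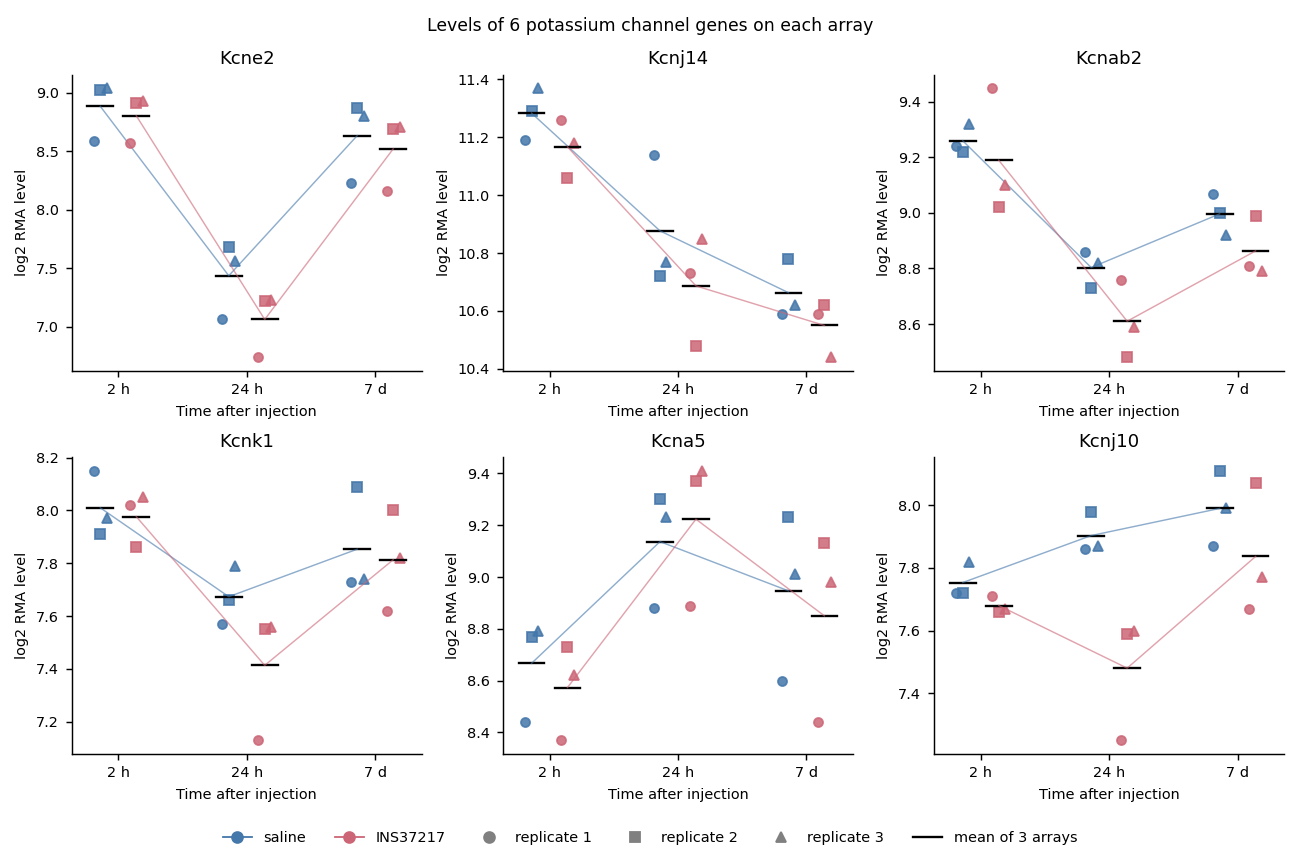
Each point is the log2 RMA level (vertical axis) of 1 array at 2 h, 24 h or 7 d after injection (horizontal axis), by fluid (colour) and replicate number (shape), with the mean of 3 arrays as a bar, for 6 potassium channel genes. Kcne2 is lowest at 24 h in both arms, between 6.74 and 7.68, and returns above 8 at 7 d, while Kcnj14 falls over the 7 d. The Kcnj10 arrays of the 2 fluids do not overlap at 24 h, a difference with a limma adjusted p of 0.5 without the block.

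Kcnab2 (chr4:152390744-152477549), the beta 2 subunit that sits on the inner side of Kv1 channels and aids their transport, was also lower at 24 h. Its levels were 9.24, 9.22 and 9.32 at 2 h, 8.86, 8.73 and 8.82 at 24 h and 9.07, 9.0 and 8.92 at 7 d in saline. With INS37217 they were 9.45, 9.02 and 9.10, then 8.76, 8.48 and 8.59, then 8.81, 8.99 and 8.79. The 24 h arrays lay below the 2 h arrays without overlap in both arms. The fall was 0.46 (SE 0.12, adjusted p = 0.025) in saline and 0.58 (SE 0.12, adjusted p = 0.0055) with INS37217. The call with INS37217 passed with any array left out, and that in saline was lost without any 1 of the 3 saline 2 h arrays or without saline 24 h replicate 2 or 3, at adjusted p up to 0.11. In a fit on the compared arrays alone neither was called (adjusted p = 0.063 in saline and 0.09 with INS37217), and after another quantile normalization the call in saline was lost (adjusted p = 0.083). At 7 d the INS37217 level was still 0.33 below 2 h, which was called by the blocked fit (adjusted p = 0.033) and not without it (adjusted p = 0.16).

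A second probe set of Kcnab2 went the other way. This probe set read 6.96, 7.17 and 7.52 in saline at 2 h and 7.93, 8.07 and 8.32 at 24 h, a rise of 0.89 (SE 0.21, adjusted p = 0.014), and stayed up at 7 d (0.92, adjusted p = 0.014). With INS37217 it already read 7.81, 7.82 and 8.13 at 2 h and differed by 0.14 at 24 h. At 2 h it was thus 0.70 higher with INS37217 than with saline, which was called by the blocked fit (adjusted p = 0.004) and not without it (adjusted p = 0.55). The low values of this probe set were those of the saline 2 h arrays, the group with the highest beta-actin 3′ minus 5′ difference and the lowest lens marker level. The probe sets of Kcnab2 therefore give no single direction for the gene in saline, and their mean differed between 24 h and 2 h by 0.22 in saline (adjusted p = 0.34) and by -0.22 with INS37217 (adjusted p = 0.38).

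The other auxiliary subunits had smaller differences. Kcnip1, Kcnip3 and Kcnip4 encode KChIPs, calcium-binding proteins that attach to Kv4 channels. The blocked fit called Kcnip3 as lower at 24 h in saline (-0.35, adjusted p = 0.0075, and 0.27 without the block) and with INS37217 (-0.28, adjusted p = 0.036 and 0.48), and Kcnip4 as higher at 7 d in saline, by 0.65 against 2 h (adjusted p = 0.00048 and 0.18) and by 0.52 against 24 h (adjusted p = 0.01 and 0.62). Kcnip4 read 6.85, 6.99 and 7.22 at 2 h and 7.10, 8.03 and 7.87 at 7 d in saline. A second probe set of Kcnip4 had saline means of 7.15 at 2 h, 7.27 at 24 h and 7.33 at 7 d. Kcne4, a relative of Kcne2, was 0.36 lower at 24 h in saline by the blocked fit (adjusted p = 0.033 and 0.58). Its 24 h values of 6.61, 6.19 and 5.99 overlapped those of 2 h, 7.07, 6.40 and 6.39. Kcnab1 and Kcnab3, the other Kv beta subunits, were called in no contrast on the probe sets used, where their time differences lay between -0.19 and 0.24.

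Kcnip1 is a second gene whose probe sets disagreed. Its chosen probe set was called once, by the blocked fit, as 0.33 higher at 7 d than at 2 h in saline (adjusted p = 0.027 and 0.31). Of the 3 others, the one with a mean of 7.07 fell in all 4 comparisons with 2 h. It read 7.44, 7.33 and 7.34 at 2 h, 7.03, 6.93 and 7.05 at 24 h and 7.01, 6.91 and 6.84 at 7 d in saline, and 7.44, 7.27 and 7.50, then 6.88, 6.85 and 6.96, then 6.92, 6.76 and 6.84 with INS37217. The 6 arrays at 2 h were above all 12 later arrays. The falls were 0.37 (SE 0.09, adjusted p = 0.024) and 0.45 (adjusted p = 0.0086) in saline and 0.51 (adjusted p = 0.0026) and 0.56 (adjusted p = 0.0013) with INS37217. The next, with a mean of 7.35, differed from 2 h by -0.27 at 24 h in saline, which the blocked fit called (adjusted p = 0.048 and 0.5), and by -0.26 and -0.29 at 24 h and 7 d with INS37217, which neither fit called. The last was near 4.91 and called by neither fit. For Kcnip3 a second probe set rose by 0.60 from 2 h to 7 d in saline (adjusted p = 0.038) while the chosen one differed by -0.26. For Kcnab1 the blocked fit called the second probe set as higher than at 2 h in saline, at 24 h (0.71, adjusted p = 0.00033 and 0.13) and 7 d (0.75, adjusted p = 0.00025 and 0.14). With INS37217 it did so at 7 d (0.38, adjusted p = 0.048 and 0.62). Of the 31 genes, 15 had more than 1 probe set and 16 had 1.

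**Figure D2:**
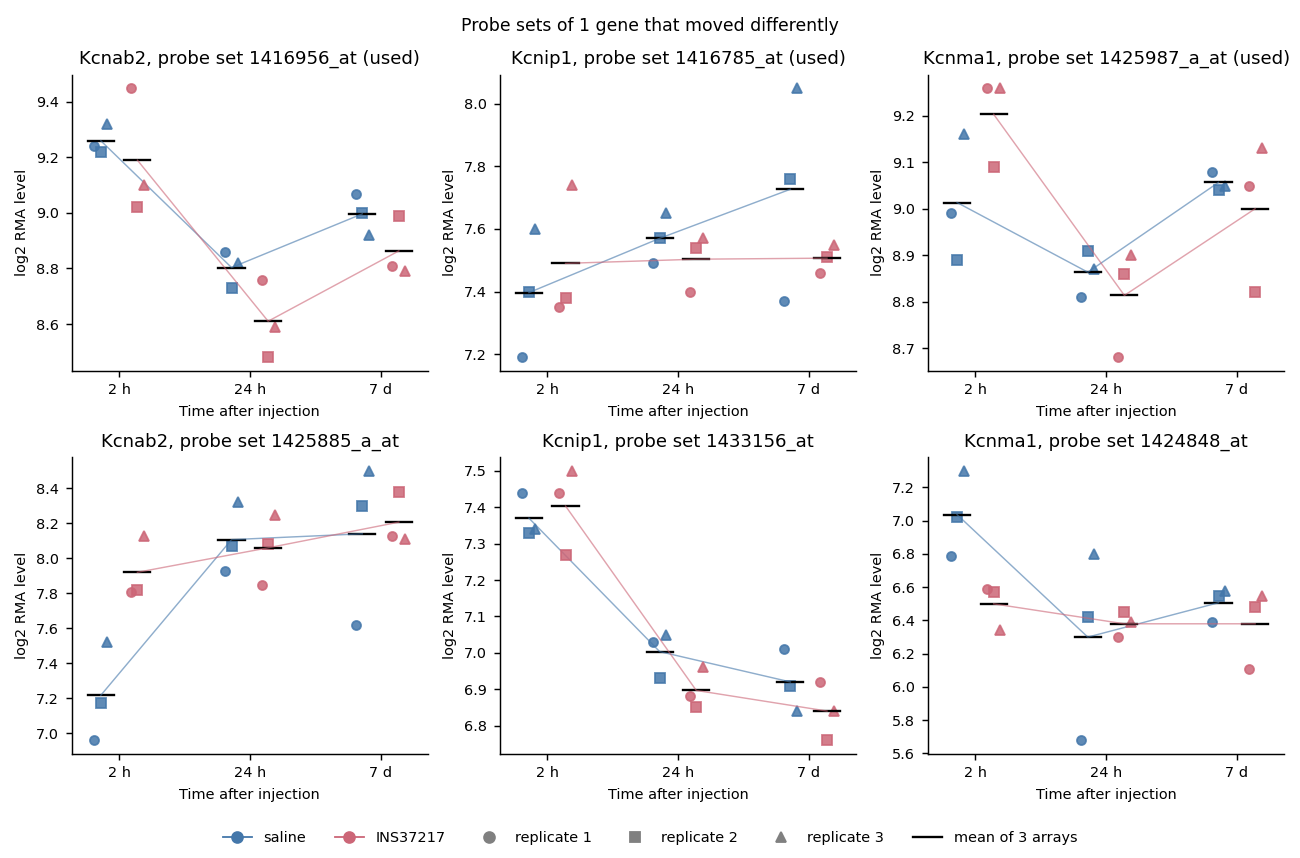
Each point is the log2 RMA level (vertical axis) of 1 array by time after injection (horizontal axis), fluid (colour) and replicate number (shape), with means of 3 arrays as bars; the upper row holds the probe set used for a gene and the lower row another probe set of the same gene. Kcnab2 falls at 24 h on the upper probe set and rises in saline on the lower one, and Kcnip1 falls after 2 h on the probe set drawn in the lower row and not on the one above it.

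Among the inward rectifiers, Kcnj14 (chr7:45816467-45824747) fell over the week. It encodes Kir2.4, a channel of the strongly rectifying Kir2 group. In saline its levels were 11.19, 11.29 and 11.37 at 2 h, 11.14, 10.72 and 10.77 at 24 h and 10.59, 10.78 and 10.62 at 7 d. With INS37217 they were 11.26, 11.06 and 11.18, then 10.73, 10.48 and 10.85, then 10.59, 10.62 and 10.44. In both arms the 7 d arrays lay below the 2 h arrays with no overlap. The fall from 2 h to 7 d was 0.62 in both (SE 0.13, adjusted p = 0.0084 in saline and 0.0081 with INS37217), a level 1.54-fold and 1.53-fold lower. In saline this passed with any array left out, and with INS37217 it was lost without INS37217 7 d replicate 3, at an adjusted p of 0.05. Both calls were lost in a fit on the compared arrays alone (adjusted p = 0.072 and 0.073). From 24 h to 7 d it differed by -0.21 in saline and -0.14 with INS37217, and neither was called. At 24 h it had fallen by 0.48 with INS37217 (adjusted p = 0.033), a call lost without INS37217 2 h replicate 1 or 3 or INS37217 24 h replicate 1 or 2 (adjusted p up to 0.18), on the compared arrays alone (0.12) or after another quantile normalization (0.061), and by 0.41 in saline in the blocked fit (adjusted p = 0.012, and 0.067 without the block).

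Kcnj10 (chr1:172341210-172374085), the Kir4.1 channel of Mueller glia, was the one gene of the 31 whose 95% interval for the drug difference at 24 h lay wholly on one side of 0. This is 3.23% of the 31 genes, beside 3.47% of all genes above 6 with an unadjusted limma p under 0.05. The Kcnj10 levels were 7.86, 7.98 and 7.87 in saline at 24 h and 7.25, 7.59 and 7.60 with INS37217, so the groups did not overlap. The fluids did not overlap at 24 h in 4 of the 31 genes and in 728 of the 8608 genes above 6. The difference was -0.42 (SE 0.12, 95% interval -0.68 to -0.17), a 1.34-fold lower level with INS37217. Its unadjusted limma p was 0.003 and its adjusted p 0.5, and the blocked fit gave an adjusted p of 0.047. At 2 h the levels were 7.72, 7.72 and 7.82 in saline and 7.71, 7.66 and 7.67 with INS37217, a difference of -0.07, and at 7 d 7.87, 8.11 and 7.99 against 7.67, 8.07 and 7.77, a difference of -0.15 (95% interval -0.41 to 0.10). The change of the drug difference from 2 h to 24 h was -0.35 (95% interval -0.71 to 0.01, adjusted p = 1, and 0.45 in the blocked fit), so a drug effect particular to 24 h was not shown. Over time Kcnj10 was called once, by the blocked fit, as 0.36 higher at 7 d than at 24 h with INS37217 (adjusted p = 0.031 and 0.22). The mean over Mueller glia markers at 24 h was 9.18 to 9.36 in saline and 8.92 to 9.17 with INS37217, also without overlap. Of the 11 markers, 8 were below 0 between the fluids at 24 h and 3 above, with no call without the block. The blocked fit called 4 as lower. From 2 h to 24 h in saline the marker mean went from 9.71 to 9.3 and Kcnj10 from 7.75 to 7.9. The part of these markers in the difference of Kcnj10 was not tested.

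Kcnj9, which encodes Kir3.3, a subunit of the G protein-gated channels, lies next to Kcnj10 on chromosome 1 (172320508 to 172329322), with a gap of 11.9 kb and no RefSeq gene wholly between them. Its levels were 8.12, 8.32 and 8.50 at 2 h, 7.64, 7.78 and 7.85 at 24 h and 7.51, 7.82 and 8.03 at 7 d in saline. The blocked fit called Kcnj9 as lower in all 4 comparisons with 2 h, by 0.56 at 24 h and 0.53 at 7 d in saline (adjusted p = 0.00024 and 0.00055, against 0.13 and 0.2 without the block) and by 0.51 and 0.32 with INS37217 (adjusted p = 0.00066 and 0.029, against 0.2 and 0.58). Of its other probe sets, the one near 6.50 differed by -0.21 at 24 h in saline and was not called, and the one near 5.40 was 0.41 higher there by the blocked fit (adjusted p = 0.023 and 0.3). Kcnj6, which encodes Kir3.2, was 0.41 lower at 24 h in saline by the blocked fit (adjusted p = 0.018 and 0.39).

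Among the voltage-gated pore subunits, Kcnd2 was the one called without the block. It encodes Kv4.2, a channel of the rapidly inactivating A-type current. Its levels with INS37217 were 6.85, 7.02 and 7.12 at 2 h and 6.61, 6.65 and 6.41 at 24 h, with no overlap, and 6.97, 7.14 and 7.34 against 6.97, 6.69 and 6.77 in saline, where they met at one value. The fall with INS37217 was 0.44 (SE 0.13, adjusted p = 0.048), and the difference in saline was -0.34 (adjusted p = 0.13, and 0.029 in the blocked fit). The call with INS37217 was at the edge of the threshold: leaving out any 1 of 12 arrays ended it (saline 2 h replicate 2, saline 24 h replicates 2 and 3, the 3 saline 7 d arrays, INS37217 2 h replicates 2 and 3, the 3 INS37217 24 h arrays and INS37217 7 d replicate 2), at adjusted p up to 0.22. It was also lost on the compared arrays alone (0.13), with equal array medians (0.058), with a trended and robust prior (0.064) and for the mean of its probe sets (-0.31, adjusted p = 0.063).

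Kcna5, which encodes the delayed rectifier Kv1.5, was the one gene of the 31 that the blocked fit called as higher at 24 h, in both arms. Its levels went from 8.44, 8.77 and 8.79 at 2 h to 8.88, 9.30 and 9.23 at 24 h in saline, and from 8.37, 8.73 and 8.62 to 8.89, 9.37 and 9.41 with INS37217. All 24 h arrays lay above all 2 h arrays of their arm. The differences were 0.47 (adjusted p = 0.00065 in the blocked fit and 0.22 without it) and 0.65 (adjusted p = 2.3e-05 and 0.086). At 7 d it was 0.28 above 2 h in each arm by the blocked fit (adjusted p = 0.034 and 0.043, against 0.62 and 0.66), and with INS37217 0.37 below 24 h (adjusted p = 0.013 and 0.82). Kcna5, Kcna1 and Kcna6 lie on one stretch of chromosome 6, from 126532551 to 126740834, and had different calls. Kcna1, which encodes Kv1.1, was 0.37 lower at 24 h in saline by the blocked fit (adjusted p = 0.016 and 0.097) and differed by -0.14 with INS37217, and Kcna6 was called in no contrast.

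The remaining voltage-gated calls came from the blocked fit alone. At 24 h against 2 h in saline it gave Kcnc1, the fast Kv3.1 channel (-0.56, adjusted p = 0.0013 and 0.41), Kcna7 (-0.44, adjusted p = 0.04 and 0.45) and Kcnc4 (-0.27, adjusted p = 0.041 and 0.15). With INS37217 it gave Kcnc1 (-0.44, adjusted p = 0.011 and 0.63) and Kcnh2, the ERG channel (-0.43, adjusted p = 0.0054 and 0.081). Kcnc1 was also 0.50 higher at 7 d than at 24 h in saline (adjusted p = 0.012 and 0.87). Its levels in saline were 8.24, 7.25 and 7.38 at 2 h, 7.28, 6.89 and 7.02 at 24 h and 8.11, 7.27 and 7.30 at 7 d, with replicate 1 the highest each time. The 5 voltage-gated genes called in no contrast, Kcna2, Kcna6, Kcnd3, Kcnh1 and Kcnh3, had time differences between -0.23 and 0.40.

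Kcnk1, the two-pore channel TWIK-1, fell at 24 h with INS37217, from 8.02, 7.86 and 8.05 to 7.13, 7.55 and 7.56, which do not overlap. The fall was 0.56 (SE 0.14, adjusted p = 0.026), and it was lost without INS37217 2 h replicate 1 or 3 or INS37217 24 h replicate 1 (adjusted p up to 0.11), or on the compared arrays alone (0.097). In saline the levels went from 8.15, 7.91 and 7.97 to 7.57, 7.66 and 7.79, a difference of -0.34 that the blocked fit called (adjusted p = 0.047 and 0.2). A second probe set of Kcnk1, with a mean of 6.84, did not share this: it differed by 0.18 at 24 h and 0.33 at 7 d in saline, the latter called by the blocked fit as higher (adjusted p = 0.046 and 0.55), and by -0.12 at 24 h with INS37217. The mean of both differed by -0.34 at 24 h with INS37217 (adjusted p = 0.31). Kcnk3, the acid-sensitive TASK-1, was called in no contrast on the probe set used, with time differences between -0.19 and 0.13.

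Kcnma1 (chr14:23292288-24005110), the pore of the large-conductance BK channel, fell by 0.39 at 24 h with INS37217 (SE 0.11, adjusted p = 0.038), from 9.26, 9.09 and 9.26 to 8.68, 8.86 and 8.90. This call was lost without any 1 of 8 arrays (saline 24 h replicates 2 and 3, saline 7 d replicate 3, INS37217 2 h replicates 1 and 3 and the 3 INS37217 24 h arrays), at adjusted p up to 0.14. It was also lost on the compared arrays alone (0.15), on replicates 2 and 3 (0.1), after another quantile normalization (0.1), with a trended and robust prior (0.062) and for the mean of its probe sets (-0.26, adjusted p = 0.36). In saline the same probe set differed by -0.15 (adjusted p = 0.49), from 8.99, 8.89 and 9.16 to 8.81, 8.91 and 8.87. Its second probe set had the larger difference in saline, -0.74 (adjusted p = 0.051, and 0.0012 in the blocked fit), and -0.12 with INS37217. On that probe set the saline 2 h arrays, at 6.79, 7.02 and 7.30, were above the INS37217 2 h arrays, at 6.59, 6.57 and 6.34.

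Of the other calcium-activated channel genes, Kcnmb4, a beta subunit of the BK channel, was lower at 24 h by the blocked fit in saline (-0.32, adjusted p = 0.033 and 0.24) and with INS37217 (-0.45, adjusted p = 0.0054 and 0.1), and 0.52 higher at 7 d than at 24 h with INS37217 (adjusted p = 0.0034 and 0.1). With INS37217 its levels were 7.65, 7.74 and 7.82 at 2 h, 7.27, 7.36 and 7.24 at 24 h and 7.50, 7.95 and 7.99 at 7 d, lowest at 24 h without overlap. Kcnn4, the intermediate-conductance channel KCa3.1, was 0.31 lower at 24 h in saline (adjusted p = 0.035 and 0.27), and Kcnn2, the small-conductance channel SK2, 0.44 lower with INS37217 (adjusted p = 0.02 and 0.44). A second probe set of Kcnn4 had saline means of 4.44 at 2 h and 4.45 at 24 h. Kcnmb2 was called in no contrast on the probe set used.

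Counted over the 31 genes, 24 h against 2 h gave 2 lower in saline (Kcne2 and Kcnab2) and 6 lower with INS37217 (these, Kcnj14, Kcnk1, Kcnma1 and Kcnd2), and none higher in either arm. Over all probe sets limma called 7.58% in saline (2.93% as lower) and 6.52% with INS37217 (3.30% as lower), and over the genes above 6, 1 probe set each, 9.39% and 9.49%. As lower alone these were 4.17% and 5.13% of the genes above 6. The 2 genes are 6.45% of the 31 and the 6 genes 19.4%. In the blocked fit the counts were 1 higher and 15 lower in saline and 1 higher and 12 lower with INS37217, that is 51.6% and 41.9%, against 34.0% and 28.4% of genes above 6 (15.4% and 14.6% as lower) and 29.0% and 22.1% of all probe sets. The median difference of the 31 genes was -0.28 in saline, with 25 of 31 below 0, and -0.19 with INS37217, with 26 below 0. Over all genes above 6 the medians were 0.00 and -0.02, with 4258 and 4578 of 8608 below 0. The ranges of the members' differences, -1.45 to 0.47 and -1.74 to 0.65, were set at the low end by Kcne2 and at the high end by Kcna5 in both arms.

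By family, the median difference at 24 h was -0.41 for the 4 inward rectifiers in saline and -0.34 with INS37217, -0.31 and -0.39 for the 5 calcium-activated channel genes, -0.26 and -0.38 for the 2 two-pore channels, -0.23 and -0.15 for the 8 auxiliary subunits and -0.21 and -0.12 for the 12 voltage-gated pore subunits. All 5 calcium-activated channel genes were below 0 in both arms, in saline between -0.32 and -0.15 and with INS37217 between -0.45 and -0.18, with 1 call without the block. Differences between families were not tested.

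From 24 h to 7 d, 1 of 31 genes was called as higher in each arm, Kcne2, against 1.31% of all probe sets in saline (0.336% as higher) and 2.21% with INS37217 (0.941% as higher), or 2.08% and 3.09% of genes above 6. The median difference was 0.18 in saline, with 27 of 31 above 0, and 0.09 with INS37217, with 22 above 0. Over all genes above 6 the medians were -0.02 and -0.01, with 3976 and 4152 of 8608 above 0. The 24 h arrays enter both this comparison and that of 24 h against 2 h. The blocked fit called 3 as higher in saline and 3 as higher and 1 as lower with INS37217, against 9.85% and 10.6% of genes above 6 (7.37% and 7.66% of all probe sets). From 2 h to 7 d, 1 gene was called as lower in each arm, Kcnj14, against 5.44% and 4.91% of all probe sets (2.74% and 2.39% as lower) and 6.63% and 6.97% of genes above 6. The medians were -0.10 and -0.14, beside -0.01 and -0.03 over all genes above 6. The blocked fit called 6 in saline, 3 higher and 3 lower, and 5 with INS37217, 1 higher and 4 lower, against 27.2% and 23.3% of genes above 6 (21.9% and 17.9% of all probe sets). The 31 genes at or below 6 gave 0 calls in every contrast without the block. In saline the blocked fit called 5 of them for 24 h against 2 h (16.1%, beside 29.0% of all probe sets) and 1 for 7 d against 24 h (3.23%, beside 7.37%). With INS37217 it called 2 for 24 h and 2 for 7 d against 2 h (6.45% each, beside 22.1% and 17.9%).

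**Figure D3:**
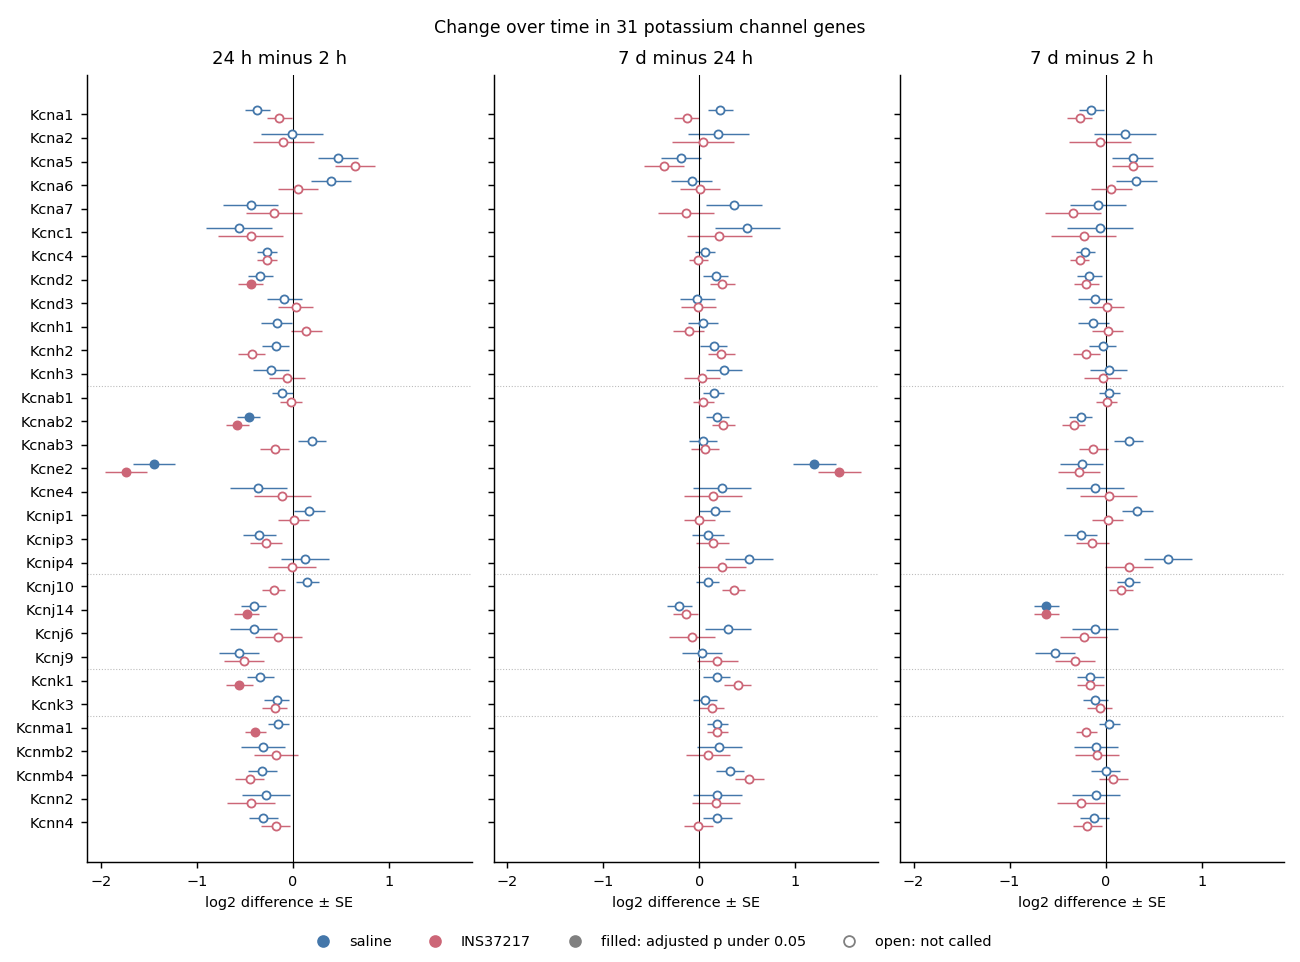
Horizontal axes give the log2 difference ± SE between times in saline and with INS37217, 1 panel per pair of times, for the 31 potassium channel genes in rows, with dotted lines between families and filled points for an adjusted p under 0.05. Most points of the first panel lie left of 0 (25 of 31 in saline), Kcne2 lies far from the rest at -1.45 and -1.74, and it alone is filled in the second panel.

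For INS37217 against saline, limma called 0 of the 31 genes at 2 h, 24 h and 7 d, where it called 0.128%, 0.119% and 0.150% of all probe sets. At an unadjusted p under 0.05 there were 0, 1 (Kcnj10) and 0, against 3.37%, 3.47% and 2.42% of genes above 6. The blocked fit called 0, 2 and 0, against 1.76%, 0.888% (0.274% as lower) and 0.641% of all probe sets. The 2 genes at 24 h were Kcnj10, described above, and Kcne2 (-0.37, SE 0.22, 95% interval -0.85 to 0.10, adjusted p = 1, and 0.04 in the blocked fit). Kcne2 arrays overlapped between the fluids at 24 h, at 7.07 to 7.68 in saline and 6.74 to 7.23 with INS37217, and within each replicate number the INS37217 array was the lower. The differences of the 31 genes ran from -0.24 to 0.33 at 2 h, from -0.42 to 0.40 at 24 h and from -0.22 to 0.12 at 7 d. The 95% intervals reached 0.34 to either side in the median gene, before any adjustment for the number of probe sets. A call needed more than that, since Kcnj10 at -0.42 had an adjusted p of 0.5, so the absence of a call does not show that the fluids act alike. At 7 d, 24 of 31 genes were below 0, with a median of -0.07. Over all genes above 6, 5244 of 8608 were below 0, with a median of -0.03. At that time fibroblast markers were higher with INS37217 (4 of 9 called, median 0.73, array means of 7.66 to 7.91 against 6.76 to 6.99), as were 3 of 14 microglia and macrophage markers, and their part in the differences at 7 d was not tested.

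Whether the course over time differed between the fluids was tested as the change of the drug difference. It gave 0 of 31 calls for 2 h to 24 h, 24 h to 7 d and 2 h to 7 d, in either fit, and 0 at an unadjusted p under 0.05 without the block, where limma called 0.0575%, 0.0398% and 0.0884% of all probe sets (1.07%, 0.274% and 0.835% in the blocked fit). For Kcne2 the change from 2 h to 24 h was -0.29 (95% interval -0.96 to 0.38, adjusted p = 1, and 0.47 in the blocked fit). The 4 genes called at 24 h with INS37217 and not in saline were therefore not shown to differ between the fluids: the changes were -0.07 for Kcnj14, -0.23 for Kcnk1, -0.24 for Kcnma1 and -0.10 for Kcnd2, each with an adjusted p of 1. The intervals of these changes reached 0.49 to either side in the median gene.

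**Figure D4:**
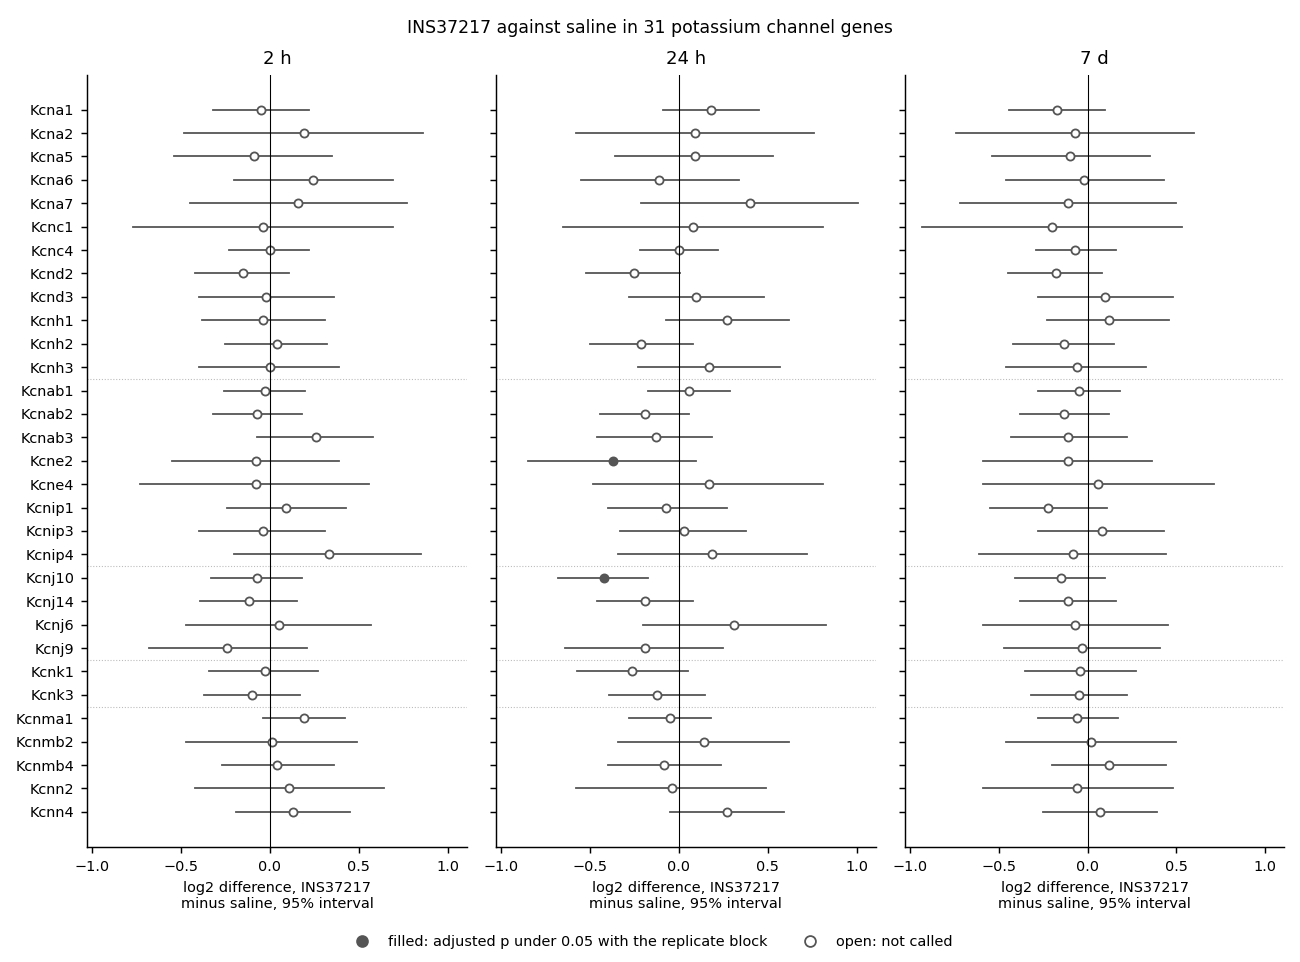
Horizontal axes give the log2 difference of INS37217 minus saline with its 95% interval from limma without the block, 1 panel per time, for the 31 potassium channel genes in rows; filled points passed an adjusted p of 0.05 in the blocked fit. The filled points are Kcne2 (-0.37) and Kcnj10 (-0.42) at 24 h, and no point is filled at 2 h or 7 d.

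Many of these genes differed between replicate 1 and the other replicates in the same direction in every group, a difference that the block takes out of the spread. Replicate 1 was above the mean of replicates 2 and 3 in all 6 groups for Kcnc1 (by 0.76 on average), Kcna2 (0.66), Kcne4 (0.66), Kcna7 (0.55) and Kcnj6 (0.47), among others. It was below them in all 6 groups for Kcnip4 (-0.51), Kcne2 (-0.49), Kcnn2 (-0.49), Kcna5 (-0.44), Kcnj9 (-0.41), Kcnip1 (-0.23) and Kcnmb4 (-0.22). For Kcne2 the difference of replicate 1 ran from -0.61 to -0.35 over the groups, so its time course was alike in the 3 replicates at a lower level in replicate 1. Kcnj14, Kcnab2 and Kcnma1, at 0.07, 0.12 and -0.02, showed no such offset in one direction. The labels do not say what the replicate numbers stand for.

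**Figure D5:**
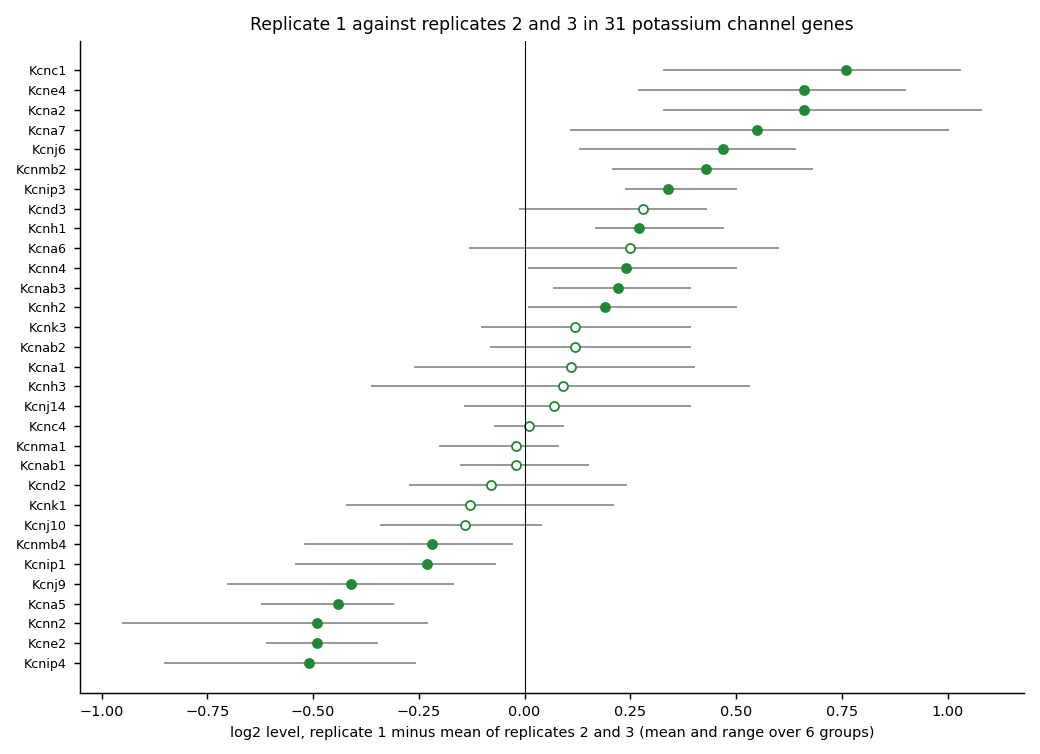
For each of the 31 potassium channel genes (rows), the point is the mean over the 6 groups of the log2 level of replicate 1 minus the mean of replicates 2 and 3, the line runs from the lowest to the highest group, and filled points have the same sign in all 6 groups. Kcnc1 at 0.76 and Kcnip4 at -0.51 mark the ends, and Kcnj14, Kcnma1 and Kcnab2 lie near 0.

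Genes that work with these channels were read beside them from 2 lists. Of 21 measured partners (sulphonylurea receptors, anchoring and scaffold proteins, aquaporin 4 and others), none was called at 24 h in saline. Dystrophin products include the form that anchors Kir4.1 at the Mueller cell endfeet, and which form the probe set of the gene, Dmd, reads was not determined. With INS37217 1 partner was called at 24 h, Dmd. Dmd fell by 0.86 (SE 0.18, adjusted p = 0.0081), from 8.38, 8.33 and 8.28 to 7.25, 7.54 and 7.63, and its difference in saline was -0.59 (adjusted p = 0.064, and 0.0016 in the blocked fit). Aqp4, the water channel found beside Kir4.1 in Mueller glia, rose by 1.41 from 2 h to 7 d in saline (SE 0.32, adjusted p = 0.016), from 7.68, 7.93 and 8.32 to 8.89, 9.65 and 9.61. Its difference with INS37217 was 1.09 (adjusted p = 0.071, and 1.1e-06 in the blocked fit). Sntb1, a syntrophin of the same complex, rose by 0.70 in saline (adjusted p = 0.034). Kcnj10 itself differed by 0.24 and 0.16 over the same time and was not called by either fit.

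Of 19 measured genes of pumps, exchangers, cotransporters and related cation channels, 5 fell and 1 rose at 24 h in saline, and 3 fell with INS37217. Those that fell in both arms were parts of the rod outer segment: Cngb1 and Cnga1, the subunits of the rod cyclic nucleotide-gated channel, and Slc24a1, the rod sodium, calcium and potassium exchanger. Cngb1 fell by 0.70 in saline (SE 0.10, adjusted p = 0.00036), from 10.44, 10.38 and 10.49 to 9.66, 9.69 and 9.87. With INS37217 it fell by 0.93 (adjusted p = 1.7e-05), from 10.54, 10.40 and 10.64 to 9.54, 9.59 and 9.65, and it rose again by 0.48 to 7 d (adjusted p = 0.015). Cnga1, which is also on the rod marker list, fell by 0.57 (adjusted p = 0.021) and 0.72 (adjusted p = 0.0045), and Slc24a1 by 0.57 (adjusted p = 0.0079) and 0.52 (adjusted p = 0.014). In saline Slc24a3 fell by 0.44 (adjusted p = 0.031) and Cngb3, the cone channel subunit, by 0.45 (adjusted p = 0.04), while Tmem38a rose by 0.50 (adjusted p = 0.015). Cngb3 is named beyond the number set for the list, after its values were seen. Trpm1, a cation channel gene that is also on the bipolar marker list, rose by 1.24 from 2 h to 7 d with INS37217 (SE 0.27, adjusted p = 0.012). Over that time the 9 measured bipolar markers had a median of -0.06, with Trpm1 the highest. The 11 measured pigment epithelium markers had a median of 1.03. In saline over that time their median was 0.64, and Trpm1 went from 7.31 to 7.48. The rise with INS37217 started from a Trpm1 mean of 6.6 at 2 h. Of the pigment epithelium markers at 2 h, 2 were called as lower with INS37217 than in saline (4 by the blocked fit), and 6 were above 0. Which cells the Trpm1 rise with INS37217 came from was not tested. No gene of either list was called between the fluids at any time, and the blocked fit called 1, Trpm1 at 2 h (-0.72, adjusted p = 0.00057 and 1).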

How the data were processed

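The values are log2 RMA levels of 22690 probe sets on 18 arrays, computed by the authors per the submitters' processing notes and used as deposited. No source used here gives the RMA version or settings. The 64 control probe sets were left out. Probe sets were named from the platform table: 20380 had 1 gene, 691 several and 1555 none. Positions and promoters are RefSeq's (GRCm38.p6), and all 31 genes matched by Entrez ID. Groups came from the titles. The source name mentions saline but no drug for 8 of 9 INS37217 arrays and gives 2 h for saline 7 d replicate 2. Leaving out each array in turn covers the latter for the fit without the block alone. The blocked fit was not repeated with an array left out, so its calls that use saline 7 d were not checked for this.

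limma 3.58.1 (R 4.3.3) fitted 6 group means to all 18 arrays (lmFit, eBayes, 12 contrasts; residual degrees of freedom 12, prior 3.3; with the replicate block 10 and 10.5), with Benjamini-Hochberg adjustment over 22626 probe sets. Every p in the text is limma's. Where an adjusted p is followed by a second one, the first is from the blocked fit and the second from the fit without the block, unless the sentence says otherwise. Deviations from group means correlated at 0.426 to 0.921 in the 45 pairs of same-numbered arrays. The numbers were taken to pair the arrays, on the data alone. Replicate 1 with another number in another group gave -0.847 to -0.501. Within groups, levels correlated at 0.959 to 0.981 between replicate 1 and the others, and at 0.994 to 0.997 between replicates 2 and 3. Replicates 2 and 3 were not compared across groups, so their pairing was not shown apart from the offset of replicate 1. The fit without the block was tested for 24 h against 2 h in saline, on simulated arrays that varied independently. The blocked fit was not tested in this way.

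Genes given with values were those called in any contrast by either fit, a list of channel genes always named, and the 3 genes on either side of the level of 6; in the 2 lists of related genes, at most 6 per list by smallest p. The genes, lists and rules were chosen with earlier results of these data known. Alternatives were the block, renormalization, other level limits, probe set rules and variance settings, fewer arrays, and each array left out.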

Additional observations from a re-analysis of the deposited data

How the results depend on the processing

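With the replicate block, the number of the 31 genes called was 16 (2 without it) for 24 h against 2 h in saline, 13 (6) with INS37217, 3 (1) and 4 (1) for 7 d against 24 h, 6 (1) and 5 (1) for 7 d against 2 h, and 2 (0) for the fluids at 24 h. It changed no count for the fluids at 2 h or 7 d or for the change of the drug difference. With replicates 2 and 3 alone the time counts were 11, 3 and 5 in saline, and 2 for 7 d against 24 h and 3 for 7 d against 2 h with INS37217. With a fit on the compared arrays alone they were 1, 0 and 0 in saline and 1 and 0 for 24 h and 7 d against 2 h with INS37217. The mean of a gene's probe sets gave 1 and 2 calls for 24 h against 2 h, and turned Kcnab2 in saline from -0.46 to 0.22. Quantile normalization gave 2 for 7 d against 24 h with INS37217. Leaving out each array gave 1 to 3, 0 to 1 and 1 to 2 in saline, 2 to 8, 1 to 2 and 1 to 1 with INS37217, and 0 to 0 for the fluids and the change of the drug difference. Of 312 alternative values of the 12 called gene results, 257 kept direction and call, 54 lost the call and 1 reversed. The cause was not tested. With 3 arrays a group, precision is limited by their number, and signal over background is not in the deposited values.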
